A study of Homo sapiens with 41 samples.

Results

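The human mitochondrial genome and its nuclear MTRNR2L copies were followed through a culture model of the lung alveolus exposed to gold nanoparticles. Members were taken by name alone: every gene of the count table whose symbol starts with MT- or MTRNR2L, which gave 50 of 57773 genes. Of these, 37 lie on the mitochondrial genome (13 protein-coding genes, 2 ribosomal RNA genes and 22 transfer RNA genes) and 13 are MTRNR2L genes on nuclear chromosomes. Reads were counted in 26 of the 50, and the 2 ribosomal and 22 transfer RNA genes held 0 counts in all 41 libraries.

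Cultures took gold nanoparticles for 24 h, as spheres, rods or stars, each under the number 1000 or 500 (the unit is not given), or went untreated (control), and their total RNA was sequenced. On the apical side, A549 cells (derived from a lung adenocarcinoma and used as alveolar epithelium) grew with differentiated THP1 cells (from a monocytic leukaemia) at an interface of air and liquid. The submerged basolateral side consisted of an endothelial line, in the labels' spelling EA.hy296. The 14 groups were thus spheres 1000, spheres 500, rods 1000, rods 500, stars 1000, stars 500 and control in each compartment. There were 3 replicates per group, except basolateral spheres 500 with replicates 1 and 3. All the cells were transformed or hybrid lines, A549 with THP1 in apical groups and the endothelial line in basolateral groups.

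Mitochondria keep a small circular genome that encodes subunits of the respiratory chain and the ATP synthase, together with the ribosomal and transfer RNAs needed to translate them. Both strands are transcribed into long precursors, which are cut into single RNAs largely at the transfer RNAs. Nearly all protein-coding genes lie on 1 strand and MT-ND6 lies on the other. The 16S ribosomal RNA gene MT-RNR2 contains a short open reading frame for the peptide humanin. The MTRNR2L genes are nuclear copies of MT-RNR2 that carry humanin-like reading frames, so a read of mitochondrial 16S RNA can match one of them.

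Libraries held 2751299 to 11660653 counts, and 3 counts came to 0.257 to 1.09 CPM, the counts of a gene per 1000000 counts of its library. The members together took 1.18 to 4.60% of a library. Epithelial markers summed to 12922 to 20510 CPM in apical libraries, against 364 to 4446 CPM in basolateral ones. Macrophage markers summed to 869 to 1244 CPM apically, against 42.6 to 305 CPM basolaterally. Endothelial markers summed to 12.8 to 64.6 CPM apically, against 1381 to 2426 CPM basolaterally. PECAM1 was not found in the table. Markers of mast cells, a cell type that the labels do not name, summed to 168 to 1476 CPM in apical libraries, against 12.7 to 312 CPM basolaterally. By KIT, a stem cell factor receptor among those markers, the apical libraries were cut at the 2 widest gaps in log2 CPM. This rule fixes the number of sets at 3. It gave 7 libraries in each, with 760.0 to 973, 444 to 513 and 103 to 138 CPM. Replicate numbers did not always follow these sets: spheres 500 had 1 library in the first and 2 in the second set, and rods 500 had 1 in the first and 2 in the third set. In both stars groups replicate 2 lay in the third set and replicate 3 in the second. In bulk RNA of this kind, fewer cells of a type and less of an RNA per cell cannot be told apart.

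The part of the 16S gene that holds the humanin reading frame is printed here because all 13 MTRNR2L genes contain a copy of it. It shows how few bases separate the mitochondrial from the nuclear sequence. The stretch is bases 963 to 1037 of MT-RNR2, at chrM:2633-2707 on the plus strand (GRCh38, from GENCODE 29 transcripts). Sequences run 5′ to 3′ along the transcript. Capitals mark bases of a copy that differ from MT-RNR2. The copies lie at chr3:96617199-96617273 (minus strand, MTRNR2L12), chr11:10508152-10508226 (minus, MTRNR2L8), chr17:22524062-22524136 (plus, MTRNR2L1), chr5:80650012-80650086 (minus, MTRNR2L2), chr6:61574328-61574402 (plus, MTRNR2L9), chr7:142667231-142667305 (plus, MTRNR2L6) and chr10:37601970-37602044 (minus, MTRNR2L7).
MT-RNR2: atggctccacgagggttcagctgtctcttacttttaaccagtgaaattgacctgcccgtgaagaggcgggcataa
MTRNR2L12: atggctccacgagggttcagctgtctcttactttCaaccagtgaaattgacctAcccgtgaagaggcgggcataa
MTRNR2L8: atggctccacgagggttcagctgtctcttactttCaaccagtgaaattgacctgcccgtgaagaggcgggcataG
MTRNR2L1: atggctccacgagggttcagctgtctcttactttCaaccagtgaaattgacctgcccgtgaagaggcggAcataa
MTRNR2L2: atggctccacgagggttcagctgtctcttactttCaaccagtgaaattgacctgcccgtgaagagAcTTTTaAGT
MTRNR2L9: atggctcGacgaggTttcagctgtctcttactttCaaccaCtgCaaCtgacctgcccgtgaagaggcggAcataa
MTRNR2L6: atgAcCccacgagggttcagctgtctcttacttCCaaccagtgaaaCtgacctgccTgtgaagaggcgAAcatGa
MTRNR2L7: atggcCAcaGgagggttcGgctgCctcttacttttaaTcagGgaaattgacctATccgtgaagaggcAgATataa
MTRNR2L12, MTRNR2L8 and MTRNR2L1 each differed from MT-RNR2 at 2 of the 75 bases, MTRNR2L9 at 7, MTRNR2L6 at 9 and MTRNR2L7 at 12. MTRNR2L2 had 1 difference in the 65 bases that align, after which the sequences part, and 9 over the 75. The first 5 copies held 2348 reads or more, while MTRNR2L6 and MTRNR2L7 are shown as the most and the least counted of the other 8.

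MTRNR2L12 (ENSG00000269028, chr3:96617188-96618236) held more counts than any other gene of the whole table, 2545665 over the 41 libraries, and ranked first in 16 libraries, 4 apical and 12 basolateral. Over 1048 aligned bases it was 95.0% identical to MT-RNR2, with a longest unbroken match of 99 bases. MTRNR2L8 held 39859 counts at 93.0% identity, MTRNR2L2 39996 counts at 98.5%, MTRNR2L1 18345 counts at 88.5% and MTRNR2L9 2348 counts at 90.7%. The other 8 copies held 60 to 240 counts each at 77.2 to 85.0% identity. The 5 copies with most reads were thus those with the highest identity over the aligned part, a description over 13 genes that share one source sequence. For MTRNR2L2 and MTRNR2L9 that part was only 65 and 75 bases. Their longest unbroken matches were 34 and 22 bases, against 30 to 62 bases in the other 8 copies. MT-RNR2 itself was listed at 0, so whether the MTRNR2L counts are nuclear transcripts or 16S RNA reads placed on the nuclear copies was not tested. They are therefore given below as counts assigned to MTRNR2L genes, with reads possibly shared. MTRNR2L2 and MTRNR2L9 are annotated at 87 and 75 bases, so their values per kilobase rest on very short transcripts.

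**Figure D1:**
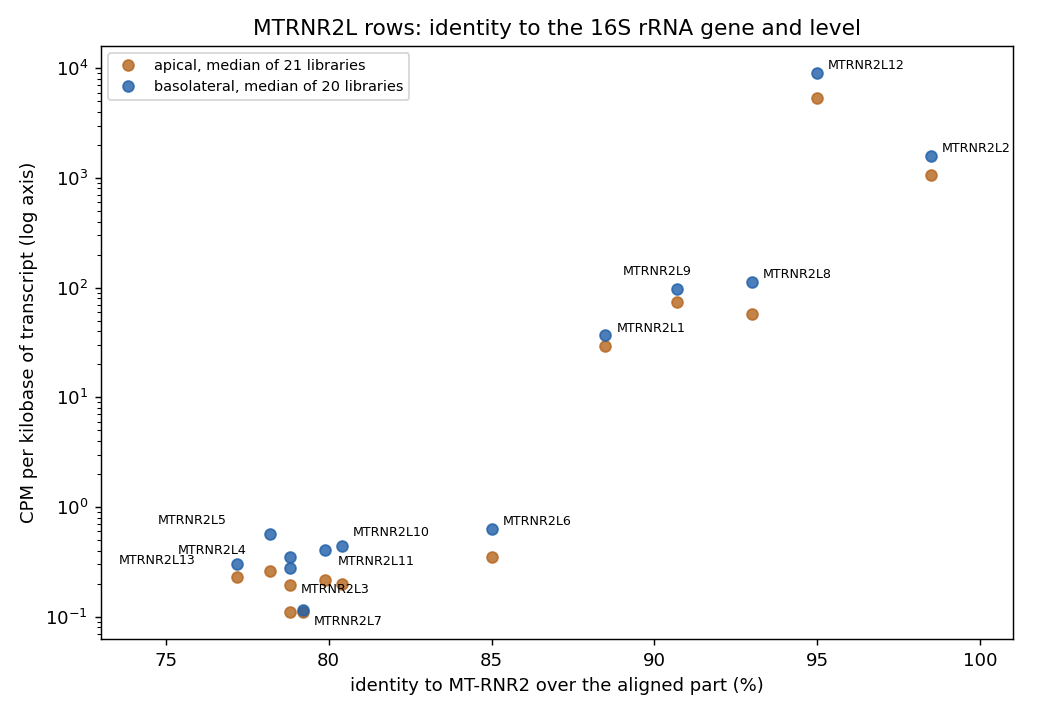
Level of the 13 MTRNR2L genes (CPM per kilobase of transcript, log axis, median of 21 apical and of 20 basolateral libraries) against identity to MT-RNR2 over the aligned part (percent). The 5 genes at 88.5% identity or more lie far above the 8 genes at 77.2 to 85.0%.

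The zeros were not limited to the mitochondrial ribosomal and transfer RNAs. All 28 genes annotated as ribosomal RNA, all 483 ribosomal RNA pseudogenes, 1803 small nuclear, 866 small nucleolar and 1178 microRNA genes were also at 0, so the 24 zeros belong to whole classes of the table and are no measurement of those RNAs. Of 175 nuclear pseudogenes of the protein-coding mitochondrial genes, 9 held reads, 136 in all, with MTND5P28 highest at 47. Among all genes of the table annotated as processed pseudogenes 797 of 9749 held reads, and among unprocessed pseudogenes 504 of 2112.

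The 13 protein-coding genes were each counted in all 41 libraries. Compared per length, MT-CO1, the catalytic core of cytochrome c oxidase (complex IV; chrM:5904-7445), was highest, with a median of 3160 CPM per kilobase in apical and 3334 in basolateral libraries. MT-CO2, the complex IV subunit that takes electrons from cytochrome c, had medians of 1311 apically and 2104 basolaterally. MT-CO3, the remaining core subunit of complex IV, had 1463 and 1688, apical given first. The ATP synthase subunits MT-ATP6 and MT-ATP8 had 1658 and 1881 apically, against 2061 and 2107 basolaterally. Their coding regions overlap by 46 bases at chrM:8527-8572, shown here because reads from this run fit both genes. Capitals mark the start codon of MT-ATP6 and the stop codon of MT-ATP8.
MT-ATP8 and MT-ATP6 overlap: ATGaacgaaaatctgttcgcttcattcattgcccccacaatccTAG
MT-ND4L and MT-ND4 overlap by 7 bases in the same way, and both pairs are read from 1 bicistronic RNA.

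The subunits of NADH dehydrogenase (complex I) covered a wide range per length. MT-ND2 led with medians of 1096 CPM per kilobase apically and 1432 basolaterally. MT-ND1 had 808 and 881, MT-ND4 802 and 1024, MT-ND5 766 and 1089, and MT-ND4L 657 and 879 CPM per kilobase, apical given first. MT-ND3 had the lowest level of the 13, 208 apically and 365 basolaterally. MT-CYB, the cytochrome b of complex III, had 395 apically and 713 basolaterally. MT-ND6, on the other strand at chrM:14149-14673, had 271 apically and 434 basolaterally. Because the strand setting of the counting is not given, reads of the opposite strand through MT-ND6 cannot be told apart from its own.

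Across the 14 groups the sum of the 13 protein-coding genes was highest in apical spheres 1000, with 26147, 17700 and 18173 CPM in replicates 1, 2 and 3, or 20673 ± 4746 CPM (SD, n = 3). Apical spheres 500 had 13920, 13674 and 17619 CPM, rods 500 13775, 13751 and 17189 CPM, and rods 1000 11569, 11873 and 15788 CPM. Stars 1000 had 14942, 12550 and 11589 CPM, stars 500 16741, 10828 and 11287 CPM, and apical control 18731, 12176 and 7767 CPM. Apical control was the most scattered of the apical groups, with a mean of 12891 ± 5517 CPM (SD, n = 3), and its range covered that of each other apical group except spheres 1000. Replicate 1 of spheres 1000 lay above every other apical library. The means of the 5 remaining exposed apical groups, 12952 to 15071 CPM, differed from that of apical control by less than its SD.

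In the basolateral compartment the same sum was 28583, 15926 and 14647 CPM with spheres 1000, and 18651 and 11444 CPM in the 2 libraries of spheres 500. Rods 1000 gave 20437, 11210 and 22560 CPM, and rods 500 20468, 11170 and 16464 CPM. Stars 1000 gave 18342, 10876 and 20707 CPM, stars 500 14080, 11308 and 23059 CPM, and basolateral control 20260, 14345 and 18413 CPM. Replicate 2 was the lowest library of 5 of the 6 groups that have 3 replicates, with spheres 1000 the exception. The basolateral group means ran from 15047 to 19718 CPM, all within the SD of 3026 CPM of the control mean, 17673 CPM.

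The MTRNR2L sum was 8452 ± 1763 CPM in apical spheres 1000, against 5999 ± 2866 CPM in apical control (SD, n = 3 each). The lowest apical mean was that of rods 1000, with 4350, 3270 and 5200 CPM in its 3 libraries. Apical control ranged from 4076 to 9293 CPM and overlapped every exposed group. Apical libraries held 3270 to 10464 CPM, against 5877 to 17429 CPM in basolateral libraries.

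**Figure D2:**
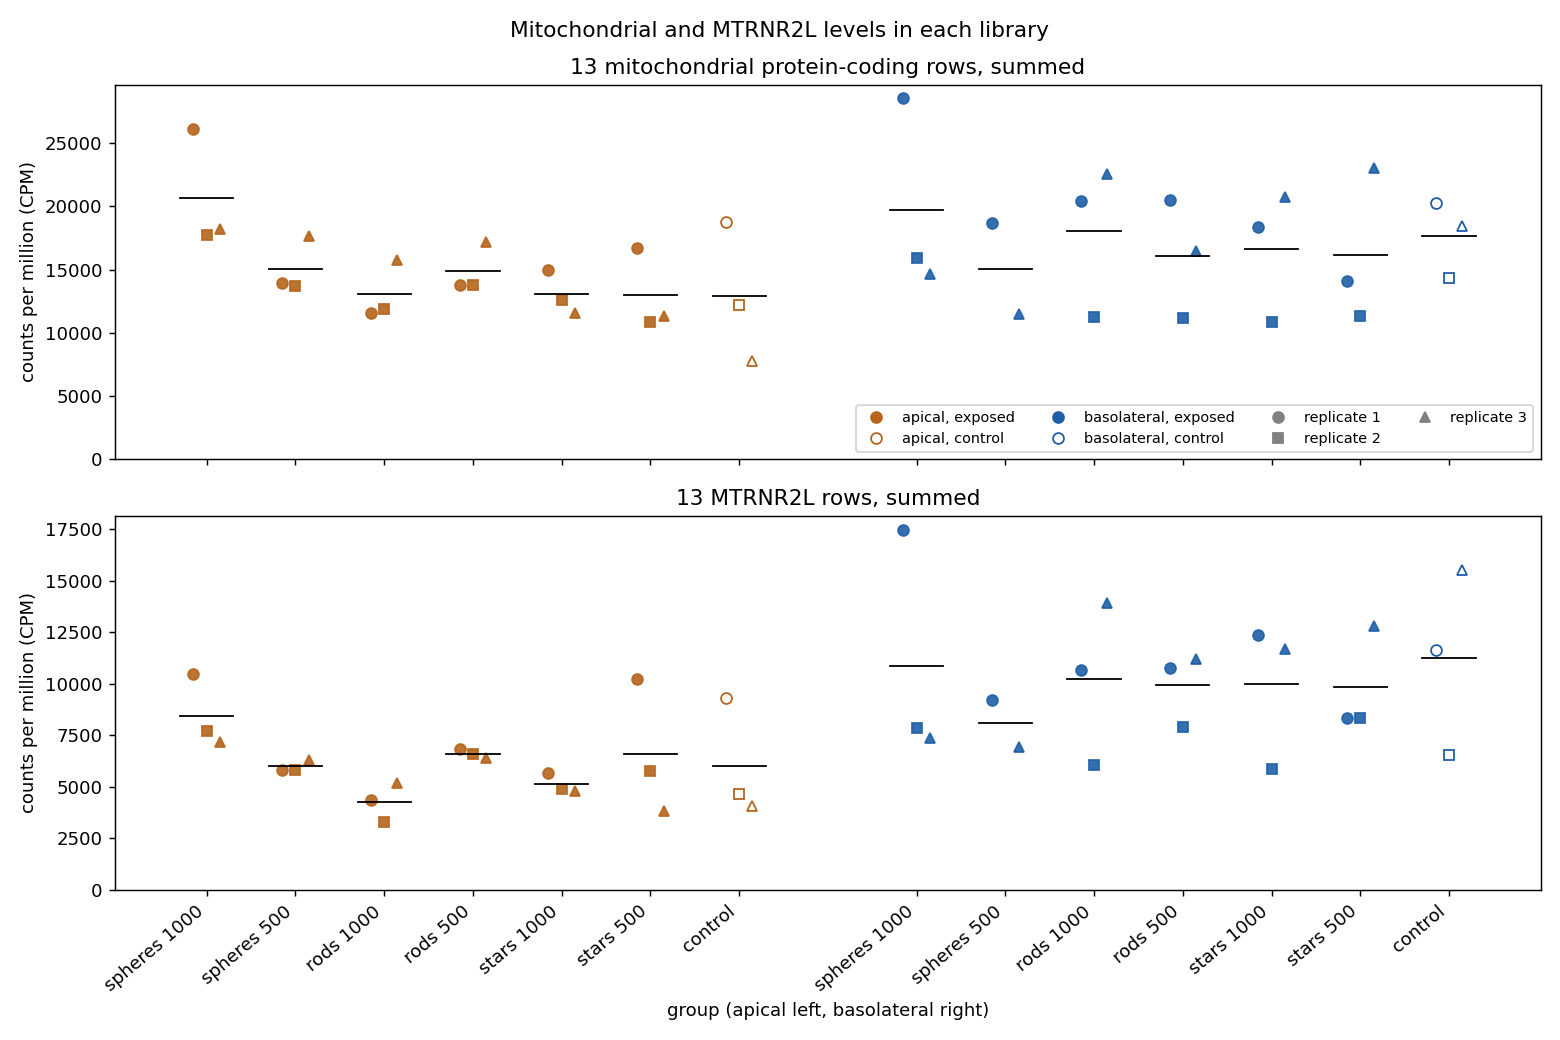
Summed CPM of the 13 mitochondrial protein-coding genes (top) and of the 13 MTRNR2L genes (bottom) in each of 41 libraries, by group, with apical groups left and basolateral groups right. Marker shape gives the replicate number, open markers are controls and black lines are group means. Apical spheres 1000 has the highest apical mean in both panels, 20673 and 8452 CPM, and the 3 apical control libraries spread from 7767 to 18731 CPM in the upper panel.

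Each exposed group was set against the control of its compartment to ask which transcripts answer to a particle. Genes were tested with edgeR's quasi-likelihood F test with group as the only term, over all genes that passed the filter on low counts. A gene counted as called where its p-value, adjusted by Benjamini and Hochberg's method, was under 0.05. Of the 26 members with reads, 18 passed the filter in most comparisons: the 13 protein-coding genes and MTRNR2L1, MTRNR2L2, MTRNR2L8, MTRNR2L9 and MTRNR2L12. A further copy, MTRNR2L4 or MTRNR2L6, passed in basolateral spheres 500, rods 1000 and stars 1000. No member was called in any of the 12 comparisons, beside a background of 0% of all genes called in each. DESeq2 also called 0 members, and at an unadjusted edgeR p under 0.05 with group as the only term there were 7 of 18 members in apical spheres 1000 and 0 in each other comparison. With the replicate number as a block the members remained at 0 calls in all comparisons but apical spheres 1000, beside 0.0352% of all genes in apical rods 1000, 0.00713% in apical rods 500, 0.00732% in basolateral spheres 500 and 0% in the other 8.

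In apical spheres 1000 all 13 protein-coding genes and all 5 tested MTRNR2L genes were above control, with median log2 fold changes of 0.74 and 0.59, against 0.00 over all 14013 genes tested. MT-CO1 had 8961, 5837 and 6927 CPM in replicates 1, 2 and 3 of spheres 1000, against 6731, 4600 and 2907 CPM in control. MT-ND1, a complex I subunit next to the 16S gene, had 1541, 1099 and 1058 CPM with spheres 1000, against 1030, 633 and 458 CPM in control. The 2 groups overlapped for MT-CO1 and did not for MT-ND1. MT-ND3 had 161, 114 and 98.6 CPM with spheres 1000, against 105, 72.0 and 50.7 CPM in control, and the groups overlapped.

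MT-ND6 had 422, 206 and 217 CPM with spheres 1000, against 222, 136 and 86.5 CPM in control. MT-CYB had 982, 599 and 614 CPM with spheres 1000, against 590, 379 and 237 CPM in control. MTRNR2L8 had 274, 136 and 142 CPM with spheres 1000, against 133, 52.9 and 58.0 CPM in control. In all 3 of these genes replicate 1 was the highest library of its group, and within each replicate number the exposed library was the higher one. Every exposed library lay above every control library for 5 of the 18 members tested, MT-CYB, MT-ND1, MT-ND2, MT-ND5 and MTRNR2L8, and this held for 2.83% of all genes. MT-RNR1 and MT-RNR2, the ribosomal RNA genes, were at 0 in all 6 libraries.

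**Figure D3:**
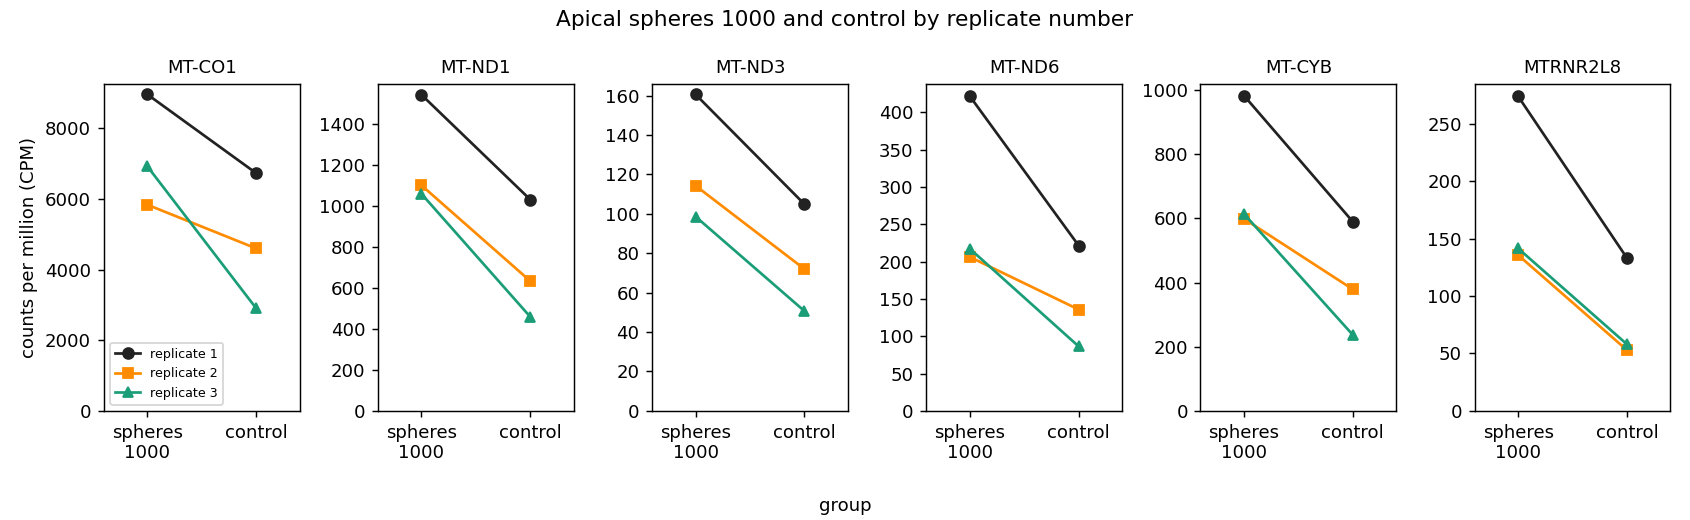
CPM of 6 members in apical spheres 1000 (left) and apical control (right), with lines joining libraries of the same replicate number. In each panel all 3 lines run downward to control, and replicate 1 is the highest library on both sides.

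With group as the only term no member was called in this comparison. MTRNR2L8 had a log2 fold change of 1.20 ± 0.46 (estimate ± standard error), MT-ND6 0.95 ± 0.43, MT-CYB 0.89 ± 0.35, MT-ND1 0.82 ± 0.30, MT-ND3 0.74 ± 0.28 and MT-CO1 0.63 ± 0.30. Each had an edgeR adjusted p of 1.00. Unadjusted, 7 of the 18 members had p under 0.05, as had 254 of all 14013 genes.

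The replicate numbers paired these 6 libraries: same-numbered libraries deviated together from their group means, with correlations of 0.36, 0.17 and 0.49. Each number here also held 1 library of each group from 1 of the KIT sets. Once the block was in the model, edgeR called 27 of 14013 genes (0.193%; 24 higher, 0.171%), and 11 of the 18 members were among them, all higher with spheres 1000. The members are not independent of each other, since protein-coding genes are cut from shared precursors and MTRNR2L reads may be shared. Their number is thus not a count of separate observations. MTRNR2L8 rose 2.37-fold, with a log2 fold change of 1.24 ± 0.10 (edgeR adjusted p = 1.9e-05). MTRNR2L2 rose by 0.91 ± 0.11 (adjusted p = 0.000991) and MTRNR2L1 by 0.61 ± 0.11 (adjusted p = 0.0429). MTRNR2L12, which holds nearly all MTRNR2L reads, was not called, at 0.57 ± 0.12 (adjusted p = 0.13).

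Among complex I genes with the block, MT-ND1 rose by 0.88 ± 0.11 and MT-ND3 by 0.76 ± 0.10 (edgeR adjusted p = 0.00219 for each). MT-ND6 rose by 0.97 ± 0.12 (adjusted p = 0.00476), MT-ND2 by 0.73 ± 0.11 (0.00765) and MT-ND4L by 0.78 ± 0.12 (0.0146). MT-CYB of complex III rose by 0.94 ± 0.13 (adjusted p = 0.0185), MT-CO3 of complex IV by 0.74 ± 0.12 (0.0429) and MT-ATP6 of the ATP synthase by 0.85 ± 0.14 (0.0437). MT-CO1, the most abundant of the 13, was not called, at 0.68 ± 0.18 (adjusted p = 0.647). The count of members called with the block was 11, against 5 without spheres 1000 replicate 3 and 6 without control replicate 3. For these reduced fits the share of all genes called is not given here. MT-CYB, MT-ND1, MTRNR2L2 and MTRNR2L8 were called in all 6 fits that left out 1 library. With all 21 apical libraries in 1 fit, blocked by replicate number or KIT set, 0 members and 0 genes were called. Unadjusted, 16 of 18 members had an edgeR p under 0.05 in either fit. The share of all genes under that p in these fits is not given here, so no weight rests on this count.

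Within the KIT sets the sum of the protein-coding genes was higher with spheres 1000 by log2 0.48, 0.54 and 1.23 in the order of the sets given above. The MTRNR2L sum was higher by 0.17, 0.74 and 0.82, and MTRNR2L8 by 1.04, 1.36 and 1.29. MTRNR2L8 relative to MTRNR2L12 was 2.80, 1.85 and 2.07% with spheres 1000, against 1.50, 1.19 and 1.48% in control. Each exposed value lay above each control value of that ratio.

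Other RNAs moved beside these genes. The 6 tested endothelial markers were all above control, with none called, and the whole list summed to 28.5, 33.99 and 50.3 CPM with spheres 1000, against 12.8, 19.7 and 28.2 CPM in control. CDH5, the endothelial cadherin, had 10.6, 9.91 and 17.1 CPM, against 1.14, 4.35 and 7.56 CPM in control, and CLDN5 was at 0 in 5 of the 6 libraries. Of 6 tested long noncoding RNAs, 5 were above control. Their list summed to 1432, 734 and 811 CPM with spheres 1000, against 1451, 646 and 574 CPM in control. Of the markers of other cell types, 0 of 8 epithelial, 3 of 9 macrophage and 6 of 7 mast cell genes were above control, with none called. The part of any of these in the mitochondrial values was not tested.

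Nuclear genes that serve the same machinery moved little, and more lay below control than above in each list but that of mitochondrial stress. Of 38 nuclear subunits of the respiratory chain and ATP synthase, 10 were above control with spheres 1000, with a median log2 fold change of -0.10 and none called, with or without the block. Those with the smallest p without the block were NDUFB5 and NDUFA4, at -0.34 ± 0.12 and -0.35 ± 0.14, and ATP5C1, at -0.33 ± 0.13 (edgeR adjusted p = 1.00 each). Of 38 factors of mitochondrial DNA and RNA metabolism, 13 were above control, with a median of -0.03. PNPT1, the mitochondrial polynucleotide phosphorylase that degrades RNA, had the smallest p, at 0.37 ± 0.12. Of 25 mitochondrial ribosomal proteins 9 were above (median -0.06), of 18 cytosolic ribosomal proteins 1 (median -0.12), and of 18 tested genes of mitochondrial stress and quality control 10 (median 0.02). No gene of these lists was called in this comparison.

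In the other 5 apical exposures the protein-coding medians were smaller in size than with spheres 1000, while the MTRNR2L medians of rods 1000 and stars 1000 were larger in size and negative. With spheres 500, 12 of 13 protein-coding genes were above control with a median log2 fold change of 0.20, while 1 of 5 MTRNR2L genes was (median -0.10). With rods 500 all 13 were above control, at 0.04 to 0.40, and the MTRNR2L median was -0.08. With rods 1000 the protein-coding median was -0.07 and all 5 MTRNR2L genes were below control, with a median of -0.79 and MTRNR2L2 lowest at -0.89 ± 0.42. With stars 1000 the medians were -0.01 and -0.62, protein-coding given first, and with stars 500 0.05 and 0.16. These comparisons share their 3 control libraries with each other and with spheres 1000, so their directions are not independent. With group as the only term no member had an unadjusted p under 0.05 in these 5 comparisons. In rods 1000, where the replicate numbers pair, the block left MTRNR2L1 uncalled at -0.72 ± 0.14 (unadjusted p = 0.000158, edgeR adjusted p = 0.161), the 1 member of 18 under 0.05 unadjusted. The share of all genes under that unadjusted threshold is not given here.

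**Figure D4:**
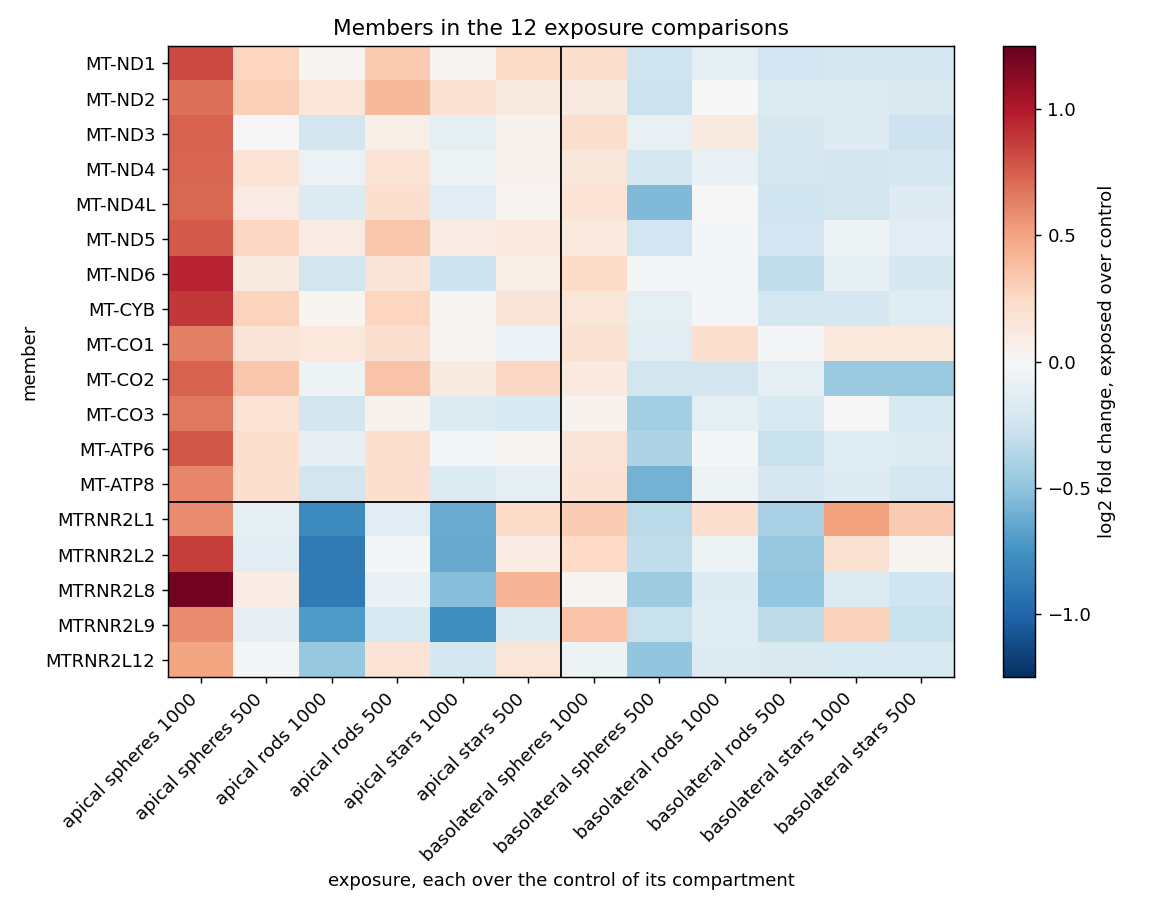
Log2 fold change, exposed over the control of its compartment, of the 13 protein-coding and 5 MTRNR2L members tested in all 12 exposure comparisons (edgeR, group as the only term). Apical spheres 1000 is positive for all 18 members, from 0.49 to 1.20, and no member was called in any column.

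The named members had these values in the other apical groups, replicates 1, 2 and 3 in order. MT-CO1 had 4794, 4873 and 6471 CPM in spheres 500, 4416, 4410 and 6690 CPM in rods 1000 and 4627, 5715 and 5834 CPM in rods 500. It had 5740, 4796 and 3996 CPM in stars 1000 and 5198, 3855 and 4412 CPM in stars 500, so that all 15 libraries lay inside the range of apical control. MT-ND1 had 809, 772 and 997 CPM in spheres 500, 615, 660 and 882 CPM in rods 1000 and 785, 760 and 1061 CPM in rods 500. It had 759, 715 and 697 CPM in stars 1000 and 1210, 652 and 595 CPM in stars 500, with 2 libraries above the control range, rods 500 replicate 3 and stars 500 replicate 1.

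MT-ND3 had 71.3, 76.9 and 80.0 CPM in spheres 500, 64.4, 60.4 and 68.3 CPM in rods 1000 and 83.5, 56.0 and 94.6 CPM in rods 500. It had 69.3, 65.1 and 74.7 CPM in stars 1000 and 99.4, 69.5 and 62.3 CPM in stars 500, all inside the range of control. MT-ND6 had 175, 140 and 171 CPM in spheres 500, 123, 115 and 138 CPM in rods 1000 and 176, 148 and 161 CPM in rods 500. It had 142, 121 and 106 CPM in stars 1000 and 263, 109 and 91.8 CPM in stars 500, where replicate 1 alone exceeded the control range. MTRNR2L8 had 82.9, 90.2 and 88.6 CPM in spheres 500, 51.8, 25.5 and 54.1 CPM in rods 1000 and 118, 42.5 and 65.7 CPM in rods 500. It had 74.6, 61.3 and 30.1 CPM in stars 1000 and 196, 86.6 and 40.1 CPM in stars 500, so that the lowest and the highest of these 15 values were in rods 1000 and stars 500.

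In the basolateral compartment the directions split between exposures, again without a call. With group as the only term no member had an unadjusted p under 0.05. With spheres 1000 all 13 protein-coding genes were above control, at log2 0.05 to 0.24, and with spheres 500 and rods 500 all 13 were below, with medians of -0.23 and -0.21. Rods 1000, stars 1000 and stars 500 had medians of -0.02, -0.17 and -0.19. MT-CO1 was above control in each of these last 3 groups, by 0.21, 0.13 and 0.13, while MT-CO2 was at -0.23, -0.46 and -0.46. The replicate numbers pair in stars 1000 and stars 500, and with the block 7 of 19 and 2 of 18 members had an unadjusted p under 0.05, all below control and none called. The share of all genes under that p is not given here for stars 1000 and stars 500, so these counts have no background beside them. MT-CO2 had the smallest p in both, at -0.48 ± 0.07 in stars 1000 (edgeR adjusted p = 0.347) and -0.47 ± 0.11 in stars 500 (adjusted p = 0.696). MTRNR2L medians ran from -0.40 with rods 500 to 0.25 with spheres 1000. The effect of an exposure was also compared between the compartments in 1 edgeR fit over all 41 libraries. No member had an unadjusted p under 0.05 for that difference with any of the 6 exposures, the smallest being 0.1175 for spheres 1000, and 0 of 16352 genes were called.

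Library values of the named members were wide in this compartment. MT-CO1 had 6088, 5375 and 4636 CPM in spheres 1000, 5217 and 3335 CPM in spheres 500, 6118, 4595 and 5797 CPM in rods 1000 and 5525, 3022 and 5431 CPM in rods 500. It had 5066, 3298 and 7039 CPM in stars 1000 and 3974, 3287 and 7908 CPM in stars 500, against 5516, 4176 and 4364 CPM in control. Every exposed group held a library outside the control range. MT-ND1 had 1895, 749 and 708 CPM in spheres 1000, 1149 and 484 CPM in spheres 500, 1019, 513 and 1168 CPM in rods 1000 and 1178, 605 and 686 CPM in rods 500. It had 1038, 547 and 919 CPM in stars 1000 and 760, 597 and 1093 CPM in stars 500, against 1134, 766 and 977 CPM in control. The highest value was that of spheres 1000 replicate 1.

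MT-ND3 had 318, 87.6 and 104 CPM in spheres 1000, 146 and 128 CPM in spheres 500, 125, 91.5 and 261 CPM in rods 1000 and 162, 103 and 120 CPM in rods 500. It had 166, 86.2 and 141 CPM in stars 1000 and 123, 95.7 and 145 CPM in stars 500, against 149, 103 and 183 CPM in control. Spheres 1000 replicate 1 was again highest. MT-ND6 had 410, 251 and 160 CPM in spheres 1000, 330 and 128 CPM in spheres 500, 269, 137 and 282 CPM in rods 1000 and 256, 155 and 156 CPM in rods 500. It had 280, 139 and 226 CPM in stars 1000 and 200, 167 and 230 CPM in stars 500, against 279, 183 and 230 CPM in control. All exposed groups overlapped control.

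MTRNR2L8 had 401, 99.6 and 54.6 CPM in spheres 1000, 201 and 69.3 CPM in spheres 500, 171, 102 and 220 CPM in rods 1000 and 142, 113 and 137 CPM in rods 500. It had 249, 68.3 and 173 CPM in stars 1000 and 150, 131 and 175 CPM in stars 500, against 192, 65.7 and 282 CPM in control. Its range within spheres 1000 was wider than that within any other group of either compartment.

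The control cultures were then compared between compartments, which sets A549 and THP1 cells against the endothelial line. All 13 protein-coding genes were lower in apical control, with a median log2 fold change of -0.78, except that MT-CO1 turned to 0.02 with no scaling, which moved the median of all genes to 0.14. Of the 13, 5 were called. MT-CO2 fell by 1.30 ± 0.32 (edgeR adjusted p = 0.0146), MT-CYB by 1.31 ± 0.30 (0.00988), MT-ND3 by 1.11 ± 0.31 (0.0223), MT-ND2 by 0.95 ± 0.26 (0.0199) and MT-ND5 by 0.86 ± 0.27 (0.0327). MT-CO1 differed least, at -0.14 ± 0.27 (adjusted p = 0.686). None of the 5 MTRNR2L genes tested was called, with MTRNR2L12 at -1.09 ± 0.43 (adjusted p = 0.0749) and MTRNR2L8 at -1.33 ± 0.63 (adjusted p = 0.127).

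These compartments hold different cells, and 54.1% of the 14198 genes tested were called, 26.7% higher and 27.4% lower apically. Of the 18 members tested 5 were called lower and 0 higher, so the share called lower is near that of all genes and the share called in either direction is below it. With the block 2 members were called, beside 52.3% of all genes. Apical control libraries were all below basolateral ones for MT-CO2 (1208, 710 and 502 CPM against 2065, 1349 and 1905 CPM in basolateral control) and for MT-CYB (590, 379 and 237 CPM against 988, 774 and 913 CPM in basolateral control), as were 27.7% of all genes. The number of members called was 11 without apical control replicate 1, 1 without apical control replicate 2 and 2 without basolateral control replicate 1. The share of all genes called in these reduced fits is not given here. The counts thus show only how far the number called depends on single libraries. Of 38 nuclear-encoded subunits, 14 were called higher and 2 lower in apical control. NDUFS1, a core subunit of complex I, was higher by 1.03 ± 0.10 (adjusted p = 0.000171), and COX7C, a complex IV subunit, fell by 0.73 ± 0.19 (adjusted p = 0.0151). Of 25 mitochondrial ribosomal proteins 1 was called higher and 8 lower, with MRPL15 lowest at -2.77 ± 0.11 (adjusted p = 5.43e-06). Of 38 factors of mitochondrial gene expression 6 were called in each direction, among them LRPPRC, which stabilises mitochondrial messenger RNAs, at 0.59 ± 0.09 (adjusted p = 0.00128), and the RNA exonuclease REXO2 at -1.39 ± 0.09 (adjusted p = 3.46e-05).

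The make-up of the mitochondrial messenger RNA was also compared between all apical and all basolateral libraries. Shares of the 13-gene sum are given as a description and are tied to each other, since a larger share of one gene lowers those of the rest. MT-CYB made up 2.77 to 3.95% of the sum in the 21 apical libraries, against 4.34 to 5.74% in the 20 basolateral libraries. It was the 1 gene of 13 whose ranges did not meet. MT-CO1 made up 31.1 to 42.4% apically (median 36.7%), against 21.3 to 40.99% basolaterally (median 29.1%).

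MT-CO2 had a median share of 6.48% apically, against 8.79% basolaterally. MT-ND3 had 0.557% apically, against 0.791% basolaterally, and MT-ND5 10.1% apically, against 11.5% basolaterally. For MT-CO2, MT-CYB, MT-ND3 and MT-ND5 all 21 apical libraries lay below the basolateral median. For MT-CO1 all 21 lay above it, as did 19 for MT-ND1 and 17 each for MT-CO3 and MT-ATP8. MTRNR2L12 relative to the 13-gene sum was 0.268 to 0.579 in apical libraries, against 0.446 to 0.807 in basolateral ones.

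**Figure D5:**
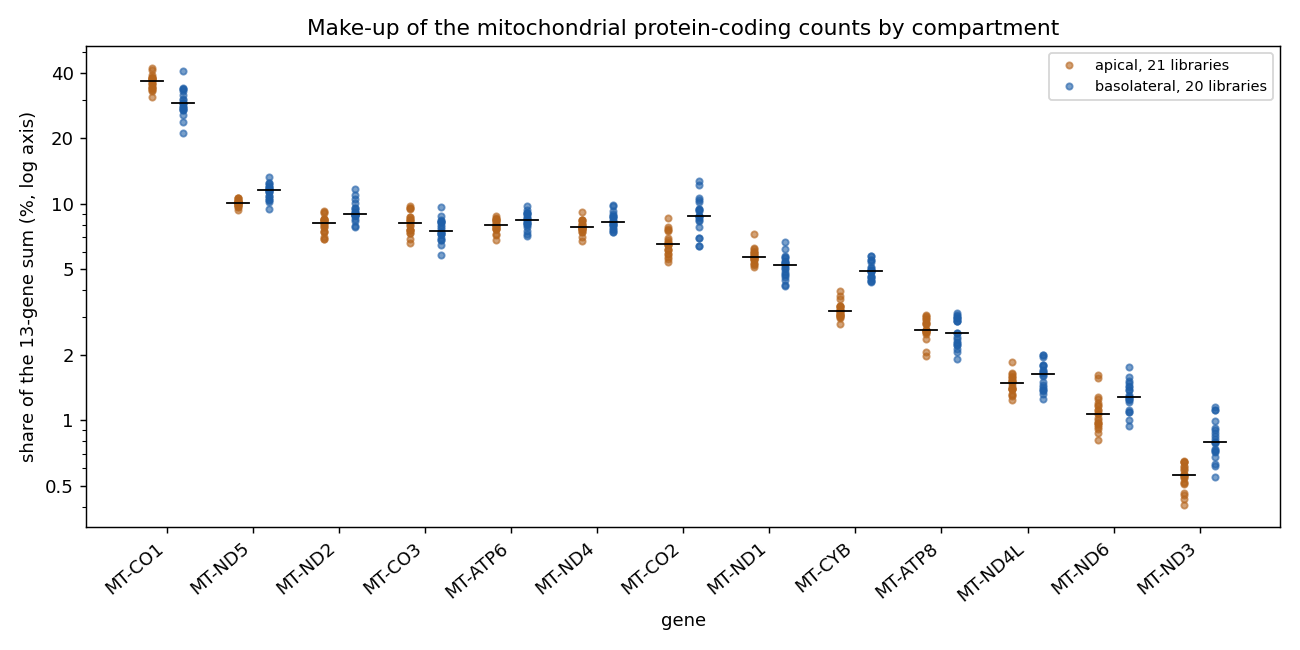
Share of each gene in the summed counts of the 13 mitochondrial protein-coding genes (percent, log axis) in each apical (left of a pair) and basolateral (right) library, with black bars at the medians. MT-CYB lies at 2.77 to 3.95% apically and 4.34 to 5.74% basolaterally, with no overlap.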

How the data were processed

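RNA of 41 cultures was measured. Per the labels, libraries were made from total RNA with a stranded kit. The authors deposited whole-number counts of reads for each gene, without normalization. Per the submitters' processing notes, GRCh38.p13 served as genome. For the aligner, the counter and the strand setting: not given in the sources used here. Even numbers made up 67.7 to 78.9% of low counts (1 to 20) per library. Both reads of a pair may have been counted, so counts may carry less information than their size. Standard errors were derived from the edgeR log2 fold change and its F statistic, whose variance estimate also draws on the other genes tested. They cover the spread between these samples, which the series text calls biological replicates.

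CPM and ratios were computed from the counts. Counts were tested in edgeR 4.0.16 (R 4.3.3; robust quasi-likelihood, TMM scaling, filterByExpr), on the 2 groups compared, and adjusted over all genes tested. Alternatives were RLE or no scaling, members left out of scaling, no filter, DESeq2 1.42.0, replicate block, joint fits and leaving out each library. The edgeR fit with group as the only term was tested on simulated counts for apical spheres 1000 against control. The replicate block and the other alternatives were not tested in this way. Replicate numbers were taken as pairs where all of at least 3 correlations of deviations (log2 CPM, prior count 2) exceeded 0.1. This held for apical spheres 1000 and rods 1000 (lowest 0.101) and basolateral stars 1000 (0.138) and stars 500 (0.123) against control. The block was compared only afterwards.

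Positions and transcripts came from GENCODE 29, also GRCh38. Alignments used blastn 2.17.0, extended without gaps over the printed stretch. Members, gene lists and tests were chosen with earlier results of these data known. All members may be named. Library values are given for MT-CO1, MT-ND1, MT-ND3, MT-ND6, MTRNR2L8 and the ribosomal RNA genes, fold changes for these and for called members, and, from other lists, up to 3 genes by p and any called. MT-CYB, MT-CO2, CDH5 and CLDN5 by library were chosen after their values were seen.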

Additional observations from a re-analysis of the deposited data

How the results depend on the processing

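For apical spheres 1000, 0 members were called with RLE scaling, no scaling, members left out of scaling, no filter, DESeq2, all apical groups in 1 fit or any 1 library left out, and the median log2 fold change of the 13 protein-coding genes stayed between 0.50 and 1.13 over the 6 fits without 1 library. With the replicate block 11 members were called, beside 0.193% of all genes. For the added blocked fits that follow, the share of all genes called is not given here, so their counts have no background beside them. Added after seeing the data, the block gave 12 with RLE scaling, 8 with no scaling, 11 with members left out of scaling, 17 with no filter, 8 in DESeq2 and 5 to 14 with 1 library left out (14, 8 and 6 without control replicates 1, 2 and 3, and 13, 10 and 5 without spheres 1000 replicates 1, 2 and 3). For each of the other 11 exposures 0 members were called under every alternative run, the replicate block included, whether the numbers pair or not. Where they do not, the block put 2 members in apical stars 1000, 9 in basolateral spheres 500 and 3 in basolateral rods 500 at an unadjusted p under 0.05, all below control. The share of all genes under that p in these blocked fits is not given here. Where 1 of the 2 libraries of basolateral spheres 500 was left out, the lone one was assumed to vary like the control libraries. Between the control cultures 5 members were called, against 3 with no scaling (which moved the median of all genes to 0.14), 9 in DESeq2 (0.17), 2 with the replicate block, whose numbers do not pair there (lowest correlation 0.04), and 1 to 11 with 1 library left out. The cause was not tested. The share of all genes called without scaling, in DESeq2 or with 1 library left out is not given here. Between the controls, MT-CO1 turned to 0.0204 with no scaling and MTRNR2L1 to 0.0405 with no scaling and 0.0726 with the replicate block. With 1 library left out MT-CO1 ranged from -0.42 to 0.0949, above 0 without apical control replicate 3. MTRNR2L1 ranged from -0.63 to 0.40, above 0 without apical control replicate 2 or 3 or basolateral control replicate 3, and MTRNR2L9 from -1.08 to 0.12, above 0 without the last.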

Other observations

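MT-ND6 relative to MT-ND5, its neighbour on the opposite strand, ran from 7.94 to 15.7% over the 41 libraries. In apical spheres 1000 it was 15.7, 11.8 and 12.1% in replicates 1, 2 and 3, against 12.7, 11.03 and 11.6% in apical control, and in basolateral spheres 1000 15.3, 12.6 and 8.23%, against 12.7, 10.5 and 10.9% in basolateral control. MT-ATP8 relative to MT-ATP6 stayed between 0.264 and 0.424, and MT-ND4L relative to MT-ND4 between 0.142 and 0.257, over all libraries.

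The summed CPM of the long noncoding RNA list and of mitochondrial messenger RNA did not keep 1 order within groups. In apical spheres 500 replicate 1 had 1300.4 CPM of the list with a mitochondrial sum of 13920 CPM, and replicates 2 and 3 had 672 and 654 CPM of the list with 13674 and 17619 CPM. Apical control replicate 1 had 1451 CPM of the list with 18731 CPM, and replicates 2 and 3 had 646 and 574 CPM with 12176 and 7767 CPM. Basolateral spheres 1000 replicate 1 had 1815 CPM of the list and 28583 CPM of mitochondrial messenger RNA, the highest of both in the series.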
